A study of Arabidopsis thaliana with 12 samples.

Results

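The SEC genes named here take part in the secretory pathway, and 7 probe sets on an Affymetrix ATH1 array reported them in mature Arabidopsis thaliana seed. A probe set was a member if its entry in the platform annotation held a single gene symbol made of SEC, a number and at most 1 final letter, and if its mean log2 signal over the 12 arrays reached the 40th percentile of the non-control probe sets. Of 22746 such probe sets, 8 carried a symbol of this form and 7 of them passed, out of 13648 probe sets that passed in all. The members are SEC5A (AT1G76850), SEC6 (AT1G71820), SEC10 (AT5G12370), SEC15A (AT3G56640), SEC15B (AT4G02350), SEC1B (AT4G12120) and SEC22 (AT1G11890), each with 1 probe set. The threshold lay at a mean log2 signal of 2.88. SEC15A, just inside it, averaged 3.15, and SEC5B (AT1G21170), which averaged 1.83, was the probe set of this form that fell outside it.

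Plant cells send proteins and cell wall material to their surface in vesicles that start at the endoplasmic reticulum (ER), pass through the Golgi apparatus and fuse with the plasma membrane. The exocyst, a complex of several subunits, tethers vesicles to the plasma membrane before they fuse. SEC5, SEC6, SEC10 and SEC15 are exocyst subunits, and in budding yeast SEC15 links the complex to a Rab GTPase on the vesicle. SEC1B belongs to the Sec1/Munc18 proteins, which act with SNARE proteins in membrane fusion, and SEC22 is a SNARE of traffic between the ER and the Golgi. The label of the family therefore covers more than the exocyst: 5 of the 7 members are exocyst subunits.

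All 12 samples were mature seed of the Landsberg erecta (Ler) background, taken from opened siliques of plants grown under fluorescent light, with 3 arrays a group. Wild-type plants were kept at 20 °C in 16 h days until flowering and at 10 °C while seed matured ("10 °C seed"). Short-day seed came from wild-type Ler kept at 20 °C in 8 h days. Plants labelled with the genotype ft-1, a mutant that flowers late, grew at 20 °C in 16 h days ("ft-1 seed"). The group they were compared with was wild-type Ler at 20 °C in 16 h days. The source name of the ft-1 samples reads Glabra rather than ft-1, and the mutated gene was not analysed here, so the group is called as its titles and genotype label it. By its title, the series asks how the environment of the mother plant bears on seed dormancy. The labels number the samples of a group without naming plants or harvests, so each p-value reflects sample-to-sample spread that could be purely technical.

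Summed signals lay between 3564488 and 4398243 over the 12 arrays, and arrays correlated across probe sets at r = 0.915 to 0.969 within groups. Seed identity was plain: the 7 seed marker probe sets that could be named, among them PAP85 and the oleosin gene OLEO3, summed to 59304 to 64930 signal units in 10 °C seed, 43419 to 45955 in short-day seed, 34805 to 41950 in ft-1 seed and 33691 to 41820 in wild-type seed. Of these, all but OLEO3 rose at 10 °C by limma's test, which makes 6, with 11.3% of all tested probe sets called higher. The 7 green tissue markers summed to 1335 to 1557, 900.0 to 1032, 679 to 921 and 866 to 1357 in the same order of groups, and the 5 pollen markers to 213 to 244, 267 to 317, 153 to 506 and 132 to 177. Members of these lists moved apart. At 10 °C the green markers LHCB4.2, LHCB4.3 and PSBW rose (1.67, 2.57 and 1.74, log2) and RCA and LHCB4.1 fell (-1.98 and -0.61). The pollen markers AT3G07820 and AT2G47050 rose in 10 °C seed (3.14 and 2.30), in short-day seed (3.45 and 2.43) and in ft-1 seed (3.22 and 2.95), all relative to wild type, while TUA1 fell at 10 °C (-0.67). ANX1 and ANX2, receptor kinase genes of pollen, were below the threshold for testing. The part that seed composition plays in the results below was not tested. In whole seed, fewer cells of a type and less RNA per cell cannot be told apart.

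One library stood apart. The first principal component placed ft-1 array 2 at 16.9 and the ft-1 arrays 1 and 3 at -43.5 and -47.9, while the 10 °C arrays lay at 45.8 to 85.9 and the wild-type arrays at -40.3 to -32.8. Many of the SEC results that rest on this array are given with and without it. The marker values above are given with it only.

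Of the 5 exocyst genes, 3 had less transcript in 10 °C seed, where 20.5% of all tested probe sets were called lower and 31.9% were called in either direction. SEC5A, SEC6 and SEC15B fell by 1.01 to 1.29 on the log2 scale relative to wild-type seed from 20 °C, and SEC1B fell by 0.86. SEC22 stayed within a narrow interval around 0 on the deposited scale. In short-day seed and in ft-1 seed each of the 7 differences from wild type was below 0 on the deposited scale, and none passed the test. These signs were not stable. SEC22 turned to 0.033 and 0.038 with arrays centred on their medians. In short-day seed 4 of the 7 were above 0 with the poly-A control signal as a covariate, and in ft-1 seed 4 were above 0 with array weights and 3 without ft-1 array 2. The 10 °C calls were not stable either. With the poly-A covariate 0 of the 7 passed at 10 °C, when 2.67% of all tested probe sets were called. In that fit 4 of the 7 differences were above 0, among them SEC5A (0.058) and SEC6 (0.23). Poly-A signal was higher on every 10 °C and short-day array than on any wild-type array. The covariate could therefore take up a real group difference as well as a technical one. The plot of signals by array shows every value.

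**Figure D1:**
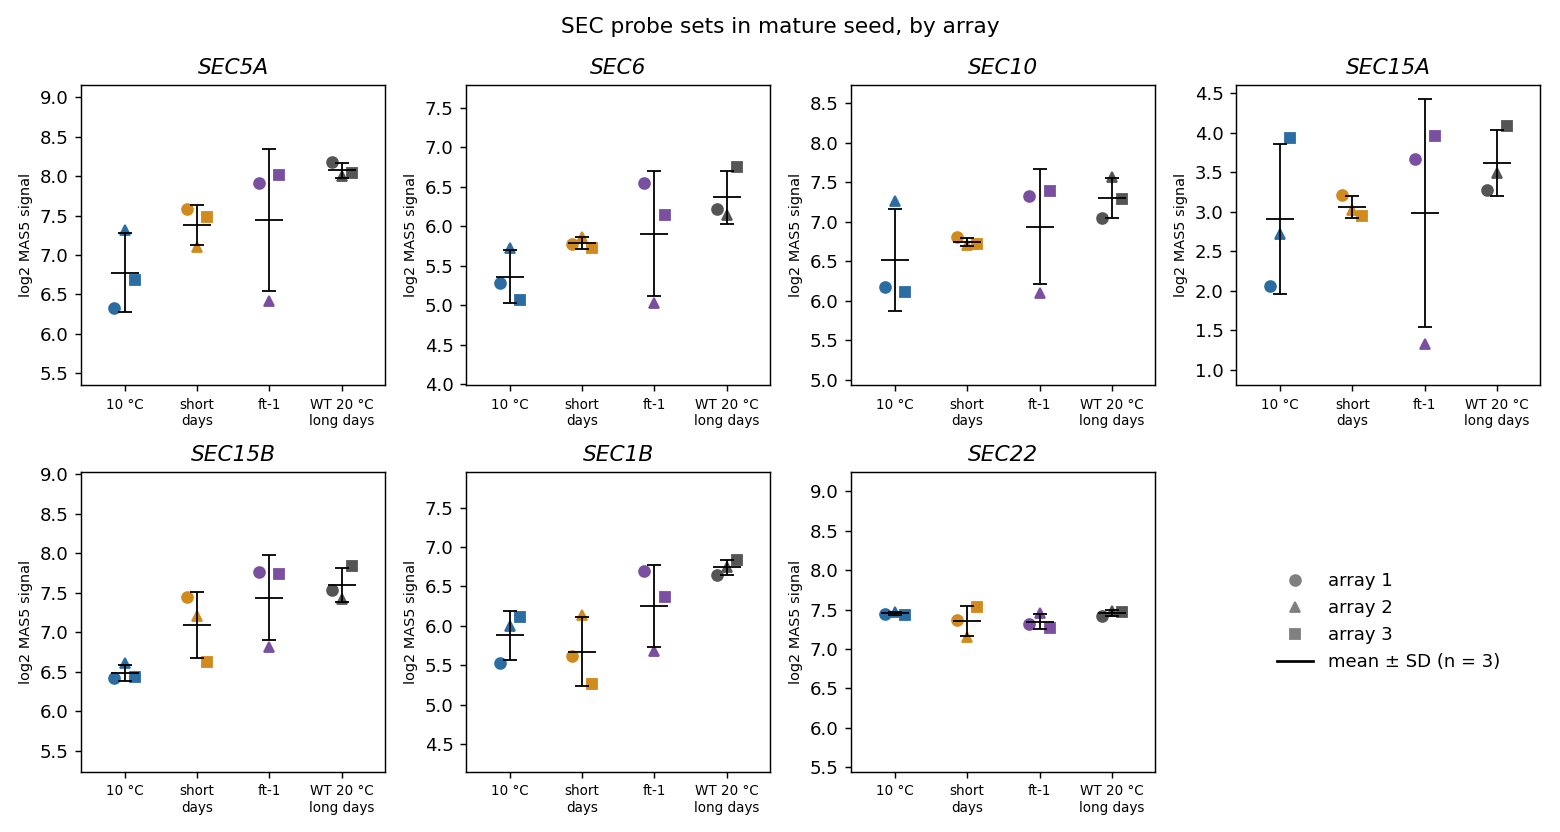
Each panel plots the log2 MAS5 signal (y axis) of 1 SEC probe set on each array of the 4 groups (x axis), with array numbers as symbols and the mean ± SD (n = 3) in black; each panel spans the same number of log2 units. The 10 °C values of SEC5A, SEC6, SEC15B and SEC1B lie below all wild-type values, ft-1 array 2 (purple triangle) lies below the other ft-1 arrays for every gene except SEC22, and SEC22 varies little.

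SEC5A, the exocyst subunit gene with the widest range of group means (1.29, log2), had signals of 80.3, 159 and 103 on the 10 °C arrays, 191, 137 and 178 on the short-day arrays and 239.9, 85.2 and 258 on the ft-1 arrays, against 289.8, 255 and 263 on the wild-type arrays. All 10 °C and all short-day values were below the lowest wild-type value, and of the ft-1 values only that of array 3 reached the wild-type range. The difference of 10 °C from wild type was -1.29 (log2, SE 0.36, limma adjusted p = 0.014), a level 2.45-fold lower. Leaving out 10 °C array 1 gave -1.07 (limma adjusted p = 0.072), and leaving out 10 °C array 3 gave -1.25 (limma adjusted p = 0.051).

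SEC6 had signals of 38.9, 52.9 and 33.4 at 10 °C, 54.8, 58.4 and 52.8 in short days and 93.5, 32.6 and 70.5 in ft-1 seed, against 74.1, 70.3 and 108 in wild-type seed. Again no 10 °C or short-day value reached the wild-type range. It fell by 1.01 at 10 °C (log2, SE 0.34, limma adjusted p = 0.033), which is 2.01-fold. This call was close to the threshold and was lost without 10 °C array 1 or 3 and without any of the wild-type arrays, with differences of -0.82 to -1.12.

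SEC10 had signals of 72.4, 153 and 69.3 at 10 °C, 112, 104 and 106 in short days and 160.0, 68.6 and 168 in ft-1 seed, against 132, 189 and 156 in wild-type seed. At 10 °C, arrays 1 and 3 were low and array 2 lay inside the wild-type range. The difference of -0.78 (log2, SE 0.35, 95% interval -1.52 to -0.04) did not pass (limma adjusted p = 0.097). Without 10 °C array 2 it was -1.15 (limma adjusted p = 0.017), and without ft-1 array 2, which enters through the shared spread, the same -0.78 passed (limma adjusted p = 0.025). SEC10 is known to lie at a duplicated locus, so its probe set may report more than 1 gene copy.

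The SEC15 genes differed in how well they could be measured. SEC15B had signals of 85.8, 97.4 and 86.2 at 10 °C, 174, 148 and 99.1 in short days and 217, 113 and 213 in ft-1 seed, against 185, 172 and 230.0 in wild-type seed. The 10 °C arrays were the tightest of the groups and the lowest, and all lay below every array of the other groups. SEC15B fell by 1.11 at 10 °C (log2, SE 0.27, limma adjusted p = 0.0080), which is 2.16-fold, and it kept this call without any 1 of the 12 arrays.

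SEC15A was near the detection limit, with signals of 4.18, 6.60 and 15.3 at 10 °C, 9.31, 8.12 and 7.75 in short days and 12.8, 2.51 and 15.6 in ft-1 seed, against 9.72, 11.3 and 17.03 in wild-type seed. Its difference at 10 °C was -0.72 (log2, SE 0.71, limma adjusted p = 0.46), and the 95% interval of -2.23 to 0.80 holds both a large fall and a rise. No statement on SEC15A can be made at this signal.

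SEC1B, the Sec1/Munc18 member, had signals of 46.2, 64.0 and 69.5 at 10 °C, 49.0, 70.4 and 38.6 in short days and 104, 51.5 and 82.9 in ft-1 seed, against 100.5, 107 and 114 in wild-type seed. It was low in both the 10 °C and the short-day arrays, none of which reached the wild-type range. It fell by 0.86 at 10 °C (log2, SE 0.29, limma adjusted p = 0.035), which is 1.82-fold, and this call was lost without 10 °C array 1 or 3 and without any of the wild-type arrays, with differences of -0.68 to -0.98.

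SEC22, the ER-Golgi SNARE gene, had signals of 174, 177 and 173 at 10 °C, 166, 142 and 186 in short days and 159.7, 175 and 154 in ft-1 seed, against 171, 179 and 177 in wild-type seed. The groups overlapped throughout, and the 4 group means spanned 0.11 on the log2 scale. The difference at 10 °C was close to 0 (log2, SE 0.17), with a 95% interval of -0.38 to 0.36. Its sign turned with quantile normalization (0.21) and with arrays centred on their medians (0.031). With centring on the hybridisation controls it was -0.69 and passed (limma adjusted p = 0.021), when 52.6% of all probe sets were called. The 95% interval on the deposited scale leaves out a fall of the size measured on that scale for SEC5A, SEC6, SEC15B or SEC1B. The difference between SEC22 and these genes was not itself tested.

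Counted together, 4 of the 7 SEC probe sets fell in 10 °C seed and 0 rose. The background was large: 31.9% of all 13648 tested probe sets were called in this comparison, 20.5% as lower and 11.3% as higher. The median difference was -0.86 over the members and -0.16 over all tested probe sets (log2). The 10 °C and wild-type arrays did not overlap for 4 of the 7 members, with 48% of all probe sets as background, so non-overlap here is no result about the members. The count of 4 was 1 without 10 °C array 1 or 3, when 19.0% and 19.6% of all probe sets were called, and 2 without any 1 of the wild-type arrays (22.0% to 24.9%). It was 5 without 10 °C array 2 (34.7%) or without ft-1 array 2 (39.1%). With each array centred on its median, which put the median of all tested probe sets at -0.12, the count stayed at 4, with 30.6% of all probe sets called. With centring on the hybridisation controls (median of all probe sets -0.85) it was 6, but 52.6% of all probe sets were then called. After quantile normalization (median -0.04) it was 2, with 28.1% called.

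**Figure D2:**
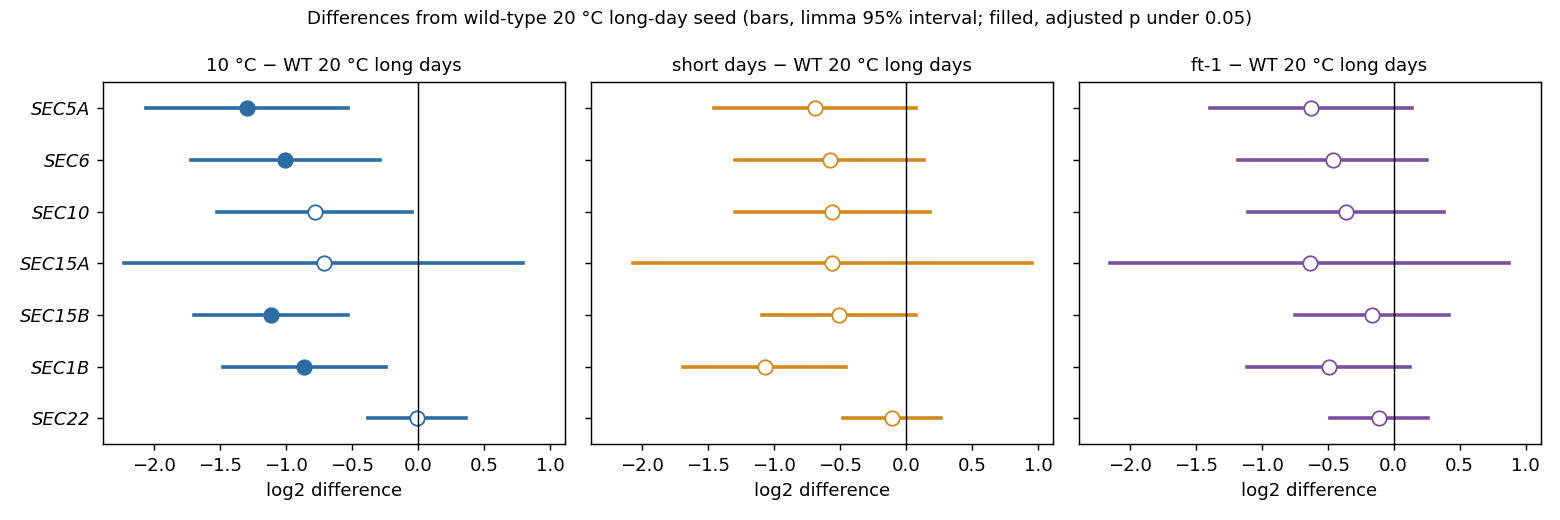
The x axis gives the log2 difference of 10 °C, short-day and ft-1 seed from wild-type seed at 20 °C in long days (left, middle and right panels) for the 7 SEC probe sets (y axis), with limma 95% intervals as bars and filled points where the adjusted p was under 0.05. Filled points appear only for SEC5A, SEC6, SEC15B and SEC1B at 10 °C, all points are at or below 0, and the bar of SEC15A is the widest.

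Day length asked a second question, namely what short days for the mother plant change. None of the 7 members passed in short-day seed, and 1 (SEC1B) had an unadjusted limma p under 0.05. The background was 1.78% of all tested probe sets. Differences ran from -1.07 to -0.10 with a median of -0.56 (log2), against a median of -0.06 over all tested probe sets. This median is the value of SEC15A, which was too dim to be read. With a filter at the 60th percentile, which leaves SEC15A out, it was -0.57, against -0.04 over all probe sets. For 5 of the 7 members, SEC15A among them, all short-day arrays lay below all wild-type arrays, with 30.3% of all probe sets not overlapping in either direction.

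SEC1B gave the largest short-day difference, -1.07 (log2, SE 0.29, 95% interval -1.69 to -0.45, limma adjusted p = 0.078). Without ft-1 array 2 in the shared spread the same difference passed (limma adjusted p = 0.014), with 8.35% of all probe sets called. In a fit of the short-day and wild-type arrays alone it passed as well (limma adjusted p = 0.018), as did SEC5A (-0.69, limma adjusted p = 0.040). That fit called 8.11% of all probe sets. The exocyst members SEC5A, SEC6, SEC10 and SEC15B gave -0.69, -0.58, -0.56 and -0.51, with 95% intervals that reached from -1.45 to 0.08, -1.29 to 0.14, -1.30 to 0.18 and -1.09 to 0.08. SEC22 gave -0.10 (95% interval -0.48 to 0.27).

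For the ft-1 genotype, none of the 7 members passed, and none had an unadjusted limma p under 0.05. The background was 0.388%. The differences ran from -0.63 to -0.11 with a median of -0.46 (log2, all tested probe sets -0.06), and for 0 of the 7 members were the ft-1 and wild-type arrays free of overlap (18% of all probe sets). These values rest on 1 library. On ft-1 array 2 the median of the 7 members, relative to their wild-type means, was -1.20 (log2), against 0.02 and -0.06 on ft-1 arrays 1 and 3. Without ft-1 array 2 the median was -0.02, and SEC5A gave -0.11, SEC6 -0.02, SEC10 0.06, SEC15A 0.20, SEC15B 0.15, SEC1B -0.21 and SEC22 -0.17.

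The pattern can be followed array by array through the median of the 7 members, each taken relative to its own wild-type mean. It was -1.18, -0.74 and -1.17 (log2) on the 10 °C arrays, -0.49, -0.60 and -0.64 on the short-day arrays and 0.02, -1.20 and -0.06 on the ft-1 arrays, against -0.09, -0.08 and 0.09 on the wild-type arrays. A technical measure moved with it. The poly-A controls, bacterial transcripts added before labelling, had a mean log2 signal of 7.98, 7.40 and 7.70 on the 10 °C arrays, 6.90, 6.90 and 6.88 on the short-day arrays and 5.06, 7.17 and 5.47 on the ft-1 arrays, against 6.13, 6.14 and 5.73 on the wild-type arrays. The array of the ft-1 group with the low SEC signals is thus also the one with the high poly-A signal, and within the 10 °C group array 2 had the highest SEC median and the lowest poly-A signal.

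The poly-A difference of 10 °C from wild type was 1.69 (log2), and an exact two-sided permutation test gave p = 0.1, the smallest that 3 against 3 arrays allow. With the poly-A mean as a covariate, 0 of the 7 members passed at 10 °C, and 2.67% of all tested probe sets were called. SEC5A then gave 0.058, SEC6 0.23, SEC15B -0.30 and SEC1B -0.070. Since the poly-A values of the 10 °C and wild-type arrays did not overlap, this fit can separate temperature from poly-A signal only through spread within groups. That spread was widest in ft-1 seed (SD 1.12, against 0.29 at 10 °C and 0.23 in wild type). Removal of a technical difference and loss of a real one cannot be told apart here. Signs of RNA integrity did not point one way. The 3′ minus 5′ signal difference of GAPDH was 1.52 ± 0.241 (log2, SD, n = 3) at 10 °C and 0.463 ± 0.269 in wild type for one pair of control probe sets, and 0.0110 ± 0.125 and 0.372 ± 0.0829 for the other. The part of RNA amount or quality in the SEC differences was not tested.

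**Figure D3:**
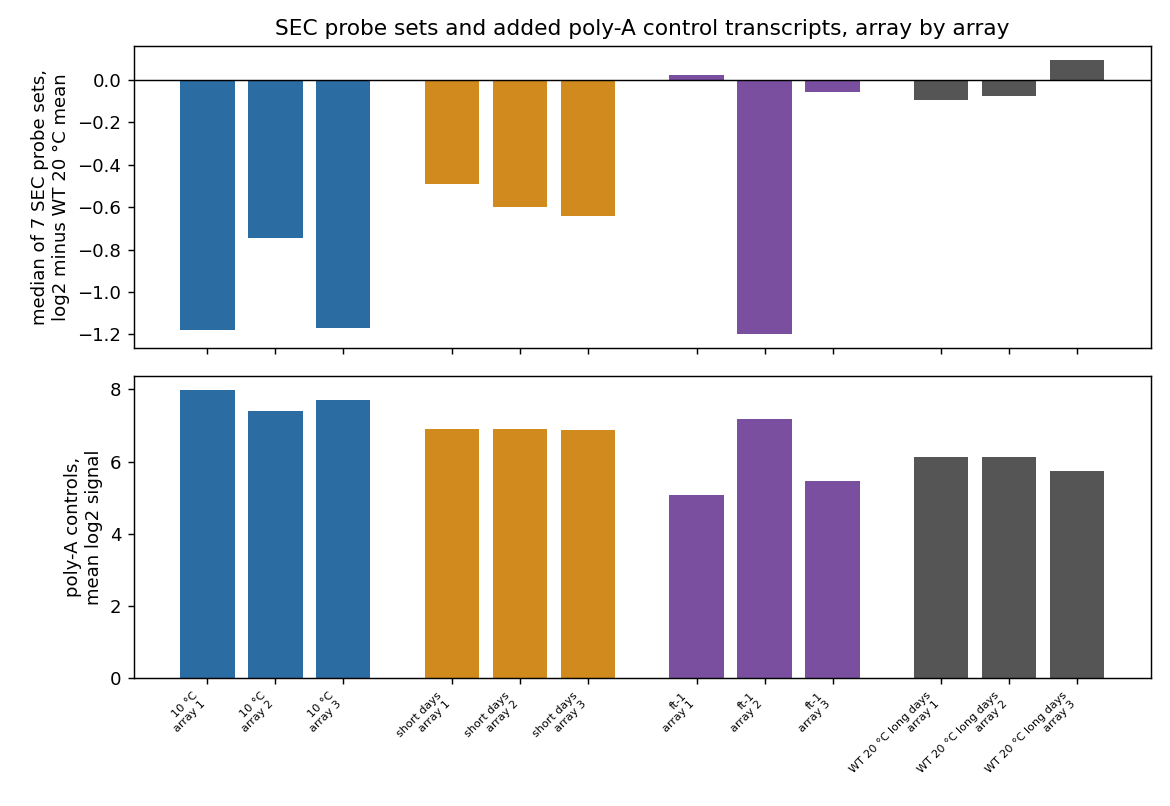
Bars give, for each of the 12 arrays (x axis), the median log2 signal of the 7 SEC probe sets relative to their wild-type means (upper panel) and the mean log2 signal of the poly-A controls (lower panel). The 10 °C arrays and ft-1 array 2 have the lowest SEC medians, from -1.20 to -0.74, and the highest poly-A means, from 7.17 to 7.98.

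Tested over all 4 groups at once with limma's F test, SEC15B (adjusted p = 0.027) and SEC1B (adjusted p = 0.045) passed, and SEC5A (0.069), SEC6 (0.14), SEC10 (0.30), SEC15A (0.80) and SEC22 (0.90) did not. That is 2 of 7, with 26.7% of all probe sets called, a share near the background. Without ft-1 array 2 it was 5 of 7, when 42.4% of all probe sets were called. It was 0 of 7 without 10 °C array 1 or 3 (11.9% and 12.1%) or wild-type array 1 or 3 (18.4% and 23.5%), and 1 of 7 without wild-type array 2, ft-1 array 3 or short-day array 1 or 3 (19.0% to 24.6%).

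In the order of group means on the deposited scale, wild type at 20 °C in long days was the highest for each of the 7 members. The share of all tested probe sets with wild type highest is not given. Their median difference from wild type was also below 0 (log2 -0.16 at 10 °C, -0.06 in short days and -0.06 in ft-1 seed). For SEC22 the 10 °C difference from wild type was only -0.0086 (log2), and SEC15A was too dim for its order to be read. Without ft-1 array 2 the ft-1 mean lay above the wild-type mean for SEC10 (by 0.056, log2), SEC15A (0.20) and SEC15B (0.15). With all arrays, the lowest was 10 °C for SEC5A, SEC6, SEC10, SEC15A and SEC15B, short days for SEC1B and ft-1 for SEC22. No pair of neighbours in these orders passed limma's test for any member. Between 10 °C and short-day seed 0 of 7 passed, with a background of 17.5%, and 1 had an unadjusted limma p under 0.05. That member was SEC15B, at -0.61 for 10 °C minus short days (95% interval -1.19 to -0.02, limma adjusted p = 0.14). It passed without ft-1 array 2 (limma adjusted p = 0.042), when 27.7% of all probe sets were called.

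Between ft-1 and short-day seed 0 of the 7 members passed and 0 had an unadjusted limma p under 0.05 (background 0.176%), with differences from -0.08 to 0.58 and the largest for SEC1B (95% interval -0.04 to 1.19). The median of these differences was 0.12 with all arrays and 0.61 without ft-1 array 2, when 6 of the 7 were above 0 and SEC1B gave 0.86. The count that passed stayed at 0 with any 1 array left out. Between ft-1 and 10 °C seed 1 of 7 passed, with a background of 24% in either direction and 14.6% for higher calls. SEC15B was higher in ft-1 seed by 0.95 (log2, SE 0.27, limma adjusted p = 0.022), with all ft-1 arrays above all 10 °C arrays, as for 33.4% of all probe sets in one direction or the other. The count was 4 without ft-1 array 2, with SEC5A (1.18), SEC6 (0.99) and SEC10 (0.84) added and 37.5% of all probe sets called. SEC15B then gave 1.26. The count was 0 without ft-1 array 1 or 3 or without 10 °C array 1 or 3 (12.2% to 13.4%). These comparisons reuse the arrays of the first 3 and are not independent of them.

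Other genes of the secretory pathway were covered thinly, since few had a probe set with a single symbol in the annotation. Tested were EXO84B, another exocyst subunit gene, 2 genes of the COPII coat that forms vesicles at the ER, 3 SNARE and Sec1/Munc18 genes, 2 Rab GTPase genes and 5 genes of protein entry and folding in the ER. At 10 °C, 2 of these 13 fell and 0 rose, with the same background of 20.5% and 11.3%. KEU (KEULE), the Sec1/Munc18 gene of cell plate formation and a relative of SEC1B, fell by 1.37 (log2, SE 0.34, limma adjusted p = 0.0080). ATERDJ2A, a J-protein gene of the ER translocation machinery, fell by 1.00 (SE 0.28, limma adjusted p = 0.016), a call that was lost without wild-type array 1 and without 10 °C array 1 or 3.

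EXO84B gave -0.52 (log2, SE 0.21, limma adjusted p = 0.070). The COPII genes AT3G63460, of the SEC31 family, and CEF, of the SEC24 family, gave -1.15 (SE 0.45, limma adjusted p = 0.066) and -1.02 (SE 0.42, limma adjusted p = 0.074). Without ft-1 array 2 EXO84B and both COPII genes passed, when 39.1% of all probe sets were called in either direction. The ER-Golgi fusion genes YKT61 (0.30) and ATSLY1 (0.07) and the Rab genes ARA6 (-0.44) and RAB6A (0.04) did not pass, nor did ATERDJ2B, ATERDJ3B, PDIL5-1 and CRT1b, which lay between -0.21 and 0.21. The SEs of ATERDJ2B, ATERDJ3B, PDIL5-1 and CRT1b were 0.59, 0.31, 0.35 and 0.38. Precision was lowest for ATERDJ2B, which was dim (mean log2 signal 3.07), so its value near 0 does not exclude a fall. In short-day seed and in ft-1 seed 0 of the 13 passed.

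**Figure D4:**
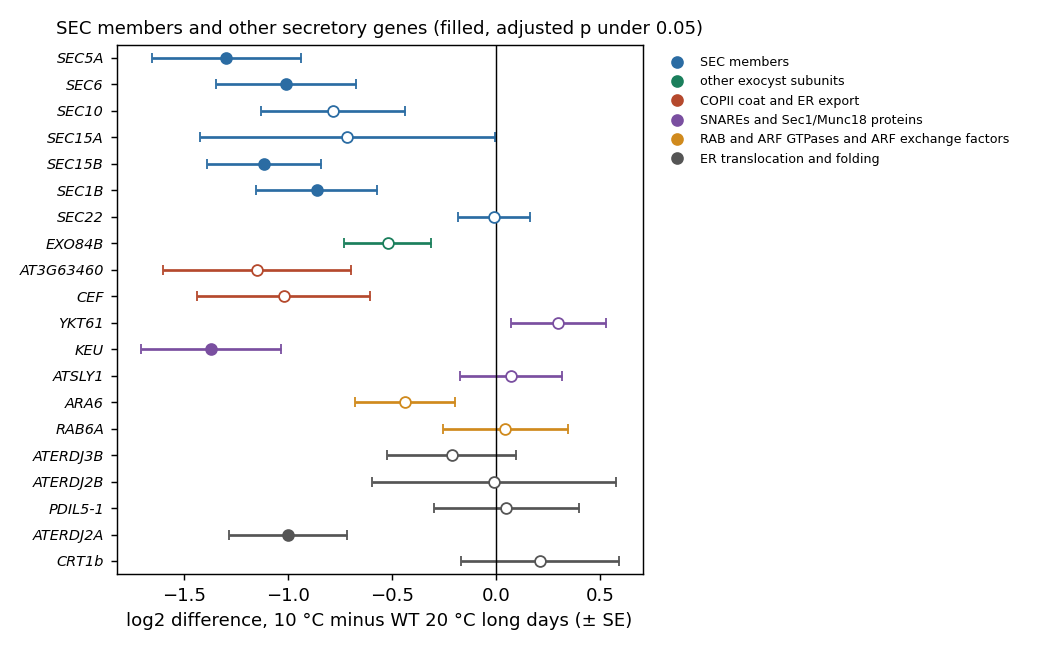
Points give the log2 difference of 10 °C seed from wild-type seed at 20 °C in long days (x axis, bars ± SE) for the 7 SEC members and 13 other tested secretory genes (y axis, coloured by list), filled where the limma adjusted p was under 0.05. Filled points, all on the left of 0, are SEC5A, SEC6, SEC15B, SEC1B, KEU and ATERDJ2A, and the points of SEC22 and most ER folding and ER-Golgi fusion genes lie near 0. The bars of SEC15A and ATERDJ2B are the widest.

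The probe sets with a single gene whose profile over the 12 arrays lay closest to that of SEC5A, by the root mean square difference of log2 values centred on each probe set's own mean, were AT3G58580 (0.108), AT1G04810 (0.123) and AT1G23230 (0.148). Closest to SEC15B, the member with the smallest F test p, were AT2G20050 (0.153), AT5G02590 (0.154) and AT5G17930 (0.179). No other SEC member was among these nearest profiles.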

How the data were processed

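Biotin-labelled total RNA from 12 seed samples was hybridised to ATH1 arrays, per the labels' protocols. The submitters deposited 1 linear intensity for each probe set on each array, computed by MAS5 within GCOS per the submitters' processing notes, with no version given. After trimming 2% from either end, every deposited column averaged 100.0, so a signal is relative to its array and a change in total messenger RNA cannot be seen. MAS5 subtracts background, which makes low values noisy on a log scale. Controls made up 64 of the 22810 probe sets.

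The deposited intensities were log2-transformed here with their scaling kept. limma 3.58.1 in R 4.3.3 fitted group means to 13648 probe sets on the 12 arrays, with an intensity trend in the variance prior. Tests were two-sided, Benjamini-Hochberg adjusted over all tested probe sets within each of 6 comparisons, and called at an adjusted p under 0.05. The 95% intervals are limma's and are not adjusted. The procedure was tested on simulated data. The number of arrays limits the precision.

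Genes came from the platform annotation, matched by gene identifier to TAIR10.1 for all 7 members. No coordinates are given, since no build is named for the annotation. All members are named. For other secretory genes the naming rule took up to 3 called genes per list and comparison, by smallest adjusted p. The remaining tested genes of these lists are named beyond that rule, after their values were seen. Matches by symbol of 3 unrelated genes were removed from the lists after their names were seen. Members and lists were chosen with earlier results of these data known. Alternatives were quantile normalization, centring on array medians or on 18 hybridisation control probe sets, no or a stricter filter (60th percentile), array weights, no variance trend, an offset of 16, the replicate number as a block, fits of only the groups compared, a covariate made of the mean over 27 probe sets for poly-A controls, a 2-fold rule, and each array left out in turn.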

Additional observations from a re-analysis of the deposited data

How the results depend on the processing

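The 4 SEC calls at 10 °C became 2 after quantile normalization (28.1% of all probe sets called), with no filter (17.1%), without the variance trend (27.9%) and with the replicate block (27.9%), and 0 with the poly-A covariate (2.67%), where SEC5A (0.058) and SEC6 (0.23) changed sign. SEC5A and SEC15B stayed called in the settings with 2. With each array left out the count was 1 to 5. For short days the count of 0 became 1 with hybridisation controls (2.92%), 2 with array weights (17.9%) and 2 with only the groups compared (8.11%), and 0 to 1 with arrays left out. For 10 °C against short days it became 2 with hybridisation controls (31.1%) and 2 with array weights (36.3%), and 0 to 1 with arrays left out. For ft-1 against short days it became 1 with array weights (16.8%). For ft-1 against 10 °C the count of 1 became 5 with hybridisation controls (47.3%) and 5 with array weights (50.0%), against 24% in the fit reported. It became 0 with only the groups compared (11.2%), the poly-A covariate (5.22%) or the 2-fold rule (14.5%), and 0 to 4 with arrays left out. For the F test the count of 2 (26.7%) became 0 after quantile normalization (24%), without the variance trend (18.2%) and with the poly-A covariate (12.8%), 1 with no filter (13.9%) and with the replicate block (20.7%), 5 with hybridisation controls (49.4%) and 5 with array weights (60.1%), and 0 to 5 with arrays left out. The causes were not tested.

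A poly-A mean without the 3 Trp probe sets, which lay near background, was added after the data had been seen. With it the counts were 0 at 10 °C (SEC5A 0.012, SEC6 0.22), 0 for ft-1 against 10 °C, 1 for the F test, and 2 for ft-1 against wild type, where SEC5A (-0.84) and SEC6 (-0.66) fell. For ft-1 against wild type every other setting gave 0. The replicate numbers do not pair the arrays: deviations from group means of arrays with the same number correlated at -0.23 to 0.14, above 0.1 in 2 of 18 pairs, and 1 of 12 arrays correlated best with its own number.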

Other observations

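Well-expressed probe sets with a SEC symbol outside the rule number 2, and both were looked at after the members. The first is annotated to several SEC genes and is therefore not named. It had signals of 87.6, 125 and 63.1 at 10 °C, 139.5, 125 and 172 in short days and 190.4, 107 and 211 in ft-1 seed, against 171, 174 and 284 in wild-type seed. The 10 °C values lay below all wild-type values, where 48% of all probe sets did not overlap in one direction or the other. It fell by 1.20 at 10 °C (log2, SE 0.31, limma adjusted p = 0.010), and gave -0.50 in short days (95% interval -1.16 to 0.16) and -0.33 in ft-1 seed (-0.99 to 0.34), which did not pass. Without ft-1 array 2 the ft-1 difference was -0.021.

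The second, AtSec20 (AT3G24315), a SNARE gene whose symbol is spelled in another way than the members', had signals of 117, 128 and 113 at 10 °C, 119.7, 139.5 and 143 in short days and 103, 159 and 123 in ft-1 seed, against 128, 101 and 116 in wild-type seed. The groups overlapped. Its differences from wild type were 0.06 at 10 °C (log2, 95% interval -0.38 to 0.50), 0.23 in short days (-0.21 to 0.66) and 0.14 in ft-1 seed (-0.30 to 0.58), and none passed limma's test (adjusted p = 0.85, 0.61 and 0.83). On ft-1 array 2, where the median of the SEC members was low, it had its highest signal of the 12 arrays.

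SEC5B, the exocyst gene too dim to be tested, had signals of 2.05, 5.88 and 5.45 at 10 °C, 3.94, 3.67 and 0.822 in short days and 0.920, 3.83 and 10.5 in ft-1 seed, against 5.65, 5.09 and 4.93 in wild-type seed. The range within the ft-1 group was wider than any difference between groups, so no comparison was made.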
